A study of Mus musculus with 16 samples.

Results

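The 10 genes described here, T, Eomes, Mixl1, Mesp1, Msgn1, Tbx6, Lhx1, Gsc, Evx1 and Cdx2, encode transcription factors of the primitive streak and of the mesoderm that leaves it. They were chosen by name. The scanner's gene names equalled a member for 3 probes of 2 genes, since most probes on this array carry a transcript accession in place of a name. A further 10 probes were matched through their RefSeq accession, which gave 13 probes for the 10 genes, out of 59448 features in the deposited table. All 13 passed the filter on dim probes, which kept 36349 features. T had 2 probes, Lhx1 had 3 and every other gene had 1.

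Gene expression was profiled in differentiating mESCs of the reporter line CGR8-Myh6-GFP, a mouse embryonic stem cell line grown without feeders in which the cardiac gene Myh6 drives GFP, so all groups shared 1 line and 1 genetic background. On day 4 of cardiac differentiation the cells received the vehicle DMSO, hawthorn extract WS1442 at 0.25 mg/mL, or the MeOH eluate at 0.1 mg/mL, a subfraction of that extract. RNA was collected after 6 h or 24 h, with 2 DMSO samples, 3 WS1442 samples and 3 MeOH eluate samples at each time, which gave 16 arrays in 6 groups. Values are log2 intensities of the quantile-normalized table, in which 1 unit is a 2-fold difference, and ± marks the standard error of the limma fit. A gene was called when its adjusted p was under 0.05 after Benjamini-Hochberg adjustment over all 36349 features.

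Nothing in the labels says whether replicates were separate cultures, so the p-values measure only the spread between these samples. WS1442 and MeOH eluate were compared with the same DMSO samples, and their effects are therefore given side by side. The arrays were bulk samples, in which fewer cells of a type and less RNA per cell cannot be told apart.

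The primitive streak forms on the posterior side of the epiblast, where Wnt, Nodal, Bmp and Fgf signals switch on T-box and homeobox factors and cells leave the epithelium to become mesoderm or endoderm. Gsc and Lhx1 are typical of its anterior end and the organiser, Mixl1 and Eomes of mesendoderm, T of the whole streak, and Evx1 and Cdx2 of its posterior part. Mesp1 marks the nascent mesoderm that includes heart precursors, and Msgn1 and Tbx6 mark the presomitic mesoderm. Differentiating mESCs pass through a short wave of these genes on the way to cardiomyocytes, which is why their levels on day 4 and on the following day were examined.

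MeOH eluate lowered most of the group at both times, and WS1442 lowered fewer of its genes. After 6 h of MeOH eluate, 8 of the 10 genes were downregulated, 6 of them by more than 2-fold, and none was upregulated. Among all features in that comparison 8.28% were called lower, 7.86% higher, and 1.4% with more than a 2-fold difference in either direction. The number over 2-fold was 4 with the normexp background correction, which adds an offset of 50 to each intensity and so shrinks differences of dim probes, and under which the differences of T and Cdx2 were -0.92 and -0.38. WS1442 downregulated 4 of the 10 at 6 h, beside 1.19% of all features called lower. At 24 h, MeOH eluate downregulated 8 of the 10, or 5 without DMSO 24 h replicate 1, beside 8.13% of all features called lower, and WS1442 downregulated 3 of the 10, beside 12.2% called lower. The median log2 difference over the 10 genes was -1.24 with MeOH eluate and -0.36 with WS1442 at 6 h, and -0.76 and -0.23 at 24 h, while the medians over all features lay between -0.01 and 0.02.

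The study's methods name the limits of over 2-fold and an unadjusted p under 0.05. At these limits MeOH eluate changed 6 of 10 genes at 6 h (T, Mixl1, Lhx1, Gsc, Evx1 and Cdx2), beside 2.03% of all features. At 24 h it changed 3 (Mixl1, Evx1 and Cdx2), beside 2.91%, and with normexp 2 were called and over 2-fold. WS1442 reached these limits for 0 genes at either time, beside 0.495% and 1.98% of all features, with 6 and 4 of the genes at an unadjusted limma p under 0.05. Between the treatments 5 genes reached them at 6 h (with normexp 3 were called and over 2-fold), beside 1.14%, and 1 at 24 h, beside 0.448%. The change of the effect with time reached them for 1 gene with WS1442, beside 2.02%, and for 3 with MeOH eluate, beside 3.27%, and 0 genes reached them in DMSO over time, beside 11% of all features.

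**Figure D1:**
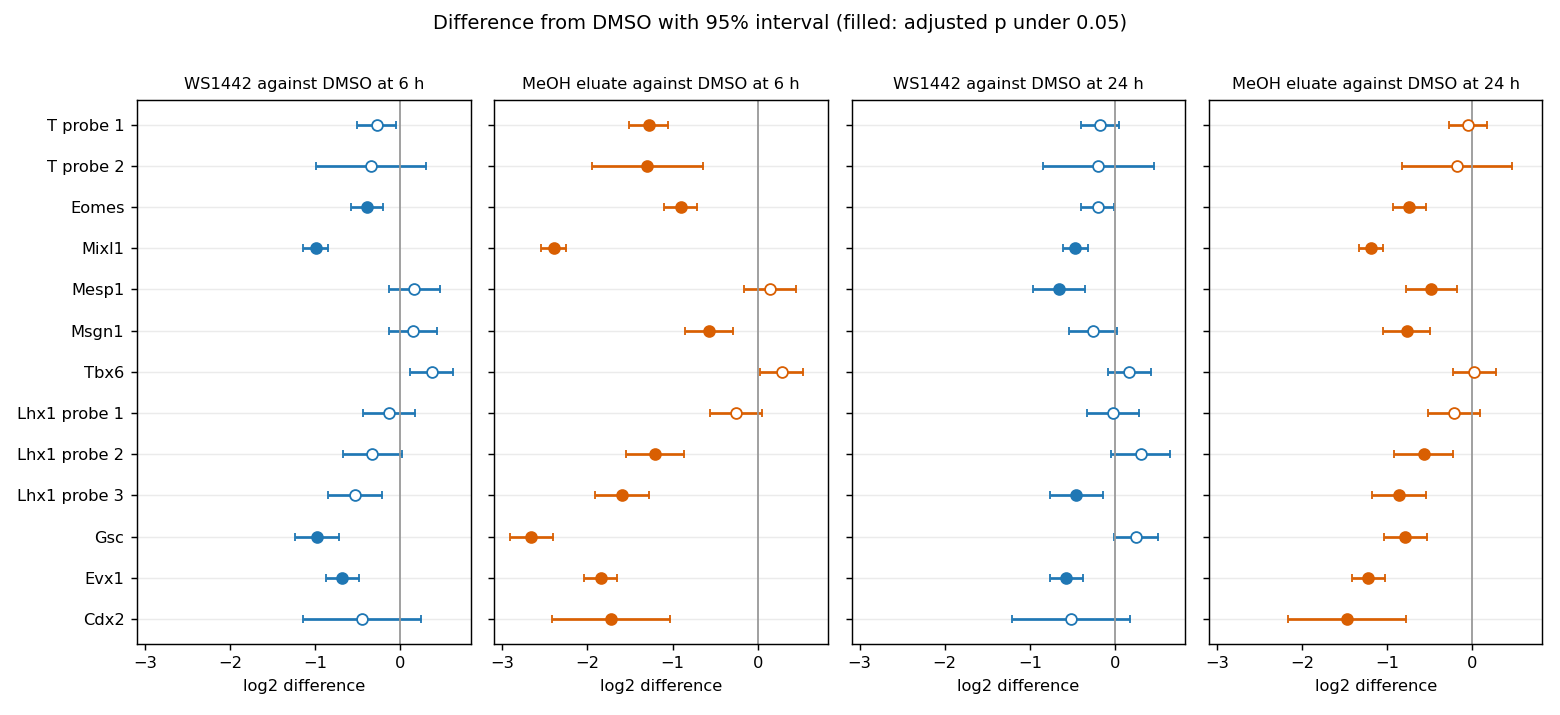
Log2 difference from DMSO of the same time (x axis) for each of the 13 probes (y axis), in 4 panels by treatment and time. Points are limma estimates, bars are 95% intervals, and filled points have an adjusted p under 0.05. Gsc and Mixl1 lie farthest to the left with MeOH eluate at 6 h, at -2.66 and -2.40, while Tbx6 is not called in any panel.

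Gsc, the homeobox repressor Goosecoid of the organiser, had the largest estimated fall of the 10 genes. It lies at chr12:104471209-104473236 of the GRCm38.p6 assembly. At 6 h its log2 intensity was 11.85 and 12.08 in DMSO, 10.98, 10.90 and 11.07 with WS1442, and 9.24, 9.40 and 9.27 with MeOH eluate. The 3 groups did not overlap, and each step down was larger than the spread within a group. Gsc was 1.97-fold lower with WS1442 (log2 difference -0.98 ± 0.12, adjusted p = 0.000515) and 6.32-fold lower with MeOH eluate (-2.66 ± 0.12, adjusted p = 5.43e-09).

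By 24 h the WS1442 samples of Gsc no longer lay below DMSO. The log2 intensity of Gsc was 11.93 and 11.92 in DMSO, 12.03, 12.19 and 12.31 with WS1442, and 11.35, 11.22 and 10.85 with MeOH eluate. All 3 WS1442 samples lay slightly above both DMSO samples, a difference of 0.25 ± 0.12 that was not called (adjusted p = 0.157). MeOH eluate samples lay below all others, with a fall of 1.73-fold (log2 difference -0.79 ± 0.12, adjusted p = 0.000288). The effect at 24 h minus the effect at 6 h was 1.22 ± 0.17 for WS1442 (adjusted p = 0.00108) and 1.87 ± 0.17 for MeOH eluate (adjusted p = 9.22e-06), so both effects on Gsc differed between the times by a direct test.

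Mixl1 and Lhx1 are homeobox factors that act beside Gsc downstream of Nodal, Mixl1 in mesendoderm and Lhx1 in the organiser. Mixl1 (chr1:180693043-180697034) was measured at 6 h at 10.98 and 10.89 in DMSO, 10.04, 9.92 and 9.85 with WS1442, and 8.57, 8.58 and 8.45 with MeOH eluate. At 24 h its log2 intensity was 10.19 and 10.13 in DMSO, 9.69, 9.71 and 9.68 with WS1442, and 8.90, 8.97 and 9.03 with MeOH eluate. The groups were ordered DMSO, WS1442, MeOH eluate at both times without overlap.

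Mixl1 was the member with the smallest standard error and the only one, with Evx1, that was called in all 4 treatment comparisons. It fell 1.99-fold with WS1442 (log2 difference -0.996 ± 0.07, adjusted p = 2.98e-06) and 5.27-fold with MeOH eluate at 6 h (-2.40 ± 0.07, adjusted p = 2.29e-11). At 24 h the falls were 1.38-fold (-0.46 ± 0.07, adjusted p = 0.00024) and 2.29-fold (-1.19 ± 0.07, adjusted p = 5.05e-08). The effects were smaller at 24 h than at 6 h by 0.53 ± 0.09 for WS1442 (adjusted p = 0.00434) and by 1.20 ± 0.09 for MeOH eluate (adjusted p = 3.05e-06).

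The 3 probes of Lhx1 (chr11:84517975-84525534) did not agree, and the first 30 bases of each are shown because they differ in kind. Probe 1 carries the RefSeq accession, and 26 of its 46 bases are A, with a run of 13. Probes 2 and 3 are of mixed composition and lie 355 bases apart in the array design's coordinates. All 3 were well above background on all 16 arrays.
Lhx1 probe 1: aaaaaaaaaaaaacccccaaaacaaaaaag
Lhx1 probe 2: aaacctaagcttgtgtgacctccagtgcat
Lhx1 probe 3: tatgtaaaaaggtgttgtttacacgaggca

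Probe 1 of Lhx1 stayed between 5.51 and 5.96 in all 16 samples and was called in none of the 4 treatment comparisons. Probe 2, the brightest and the one that stands for Lhx1 in the counts, was at 11.46 and 11.77 in DMSO at 6 h, 11.36, 11.06 and 11.42 with WS1442, and 10.31, 10.46 and 10.44 with MeOH eluate. At 24 h it was at 11.99 and 12.14 in DMSO, 12.34, 12.26 and 12.50 with WS1442, and 11.77, 11.64 and 11.09 with MeOH eluate. MeOH eluate was thus the lowest group at both times, and WS1442 lay just under DMSO at 6 h and just above it at 24 h.

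MeOH eluate lowered Lhx1 by 2.31-fold at probe 2 (log2 difference -1.21 ± 0.16, adjusted p = 0.000178) and by 3.02-fold at probe 3 (-1.60 ± 0.15, adjusted p = 6.31e-06) at 6 h. At 24 h the falls were -0.57 ± 0.16 (adjusted p = 0.0245) and -0.86 ± 0.15 (adjusted p = 0.000786). The 24 h call at probe 2 was lost without DMSO 24 h replicate 1 (adjusted p = 0.0665), without DMSO 24 h replicate 2 (0.126) and without MeOH 24 h replicate 3, where the difference was -0.36 (0.0738). With WS1442, probe 2 was uncalled at 6 h (-0.33 ± 0.16, adjusted p = 0.29) and 24 h (0.30 ± 0.16, adjusted p = 0.203), and probe 3 passed at 24 h (-0.45 ± 0.15, adjusted p = 0.0384), where the probes point in opposite directions. That probe 3 call was lost without any 1 of the 5 samples it compares, with adjusted p values of 0.0594 to 0.185.

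**Figure D2:**
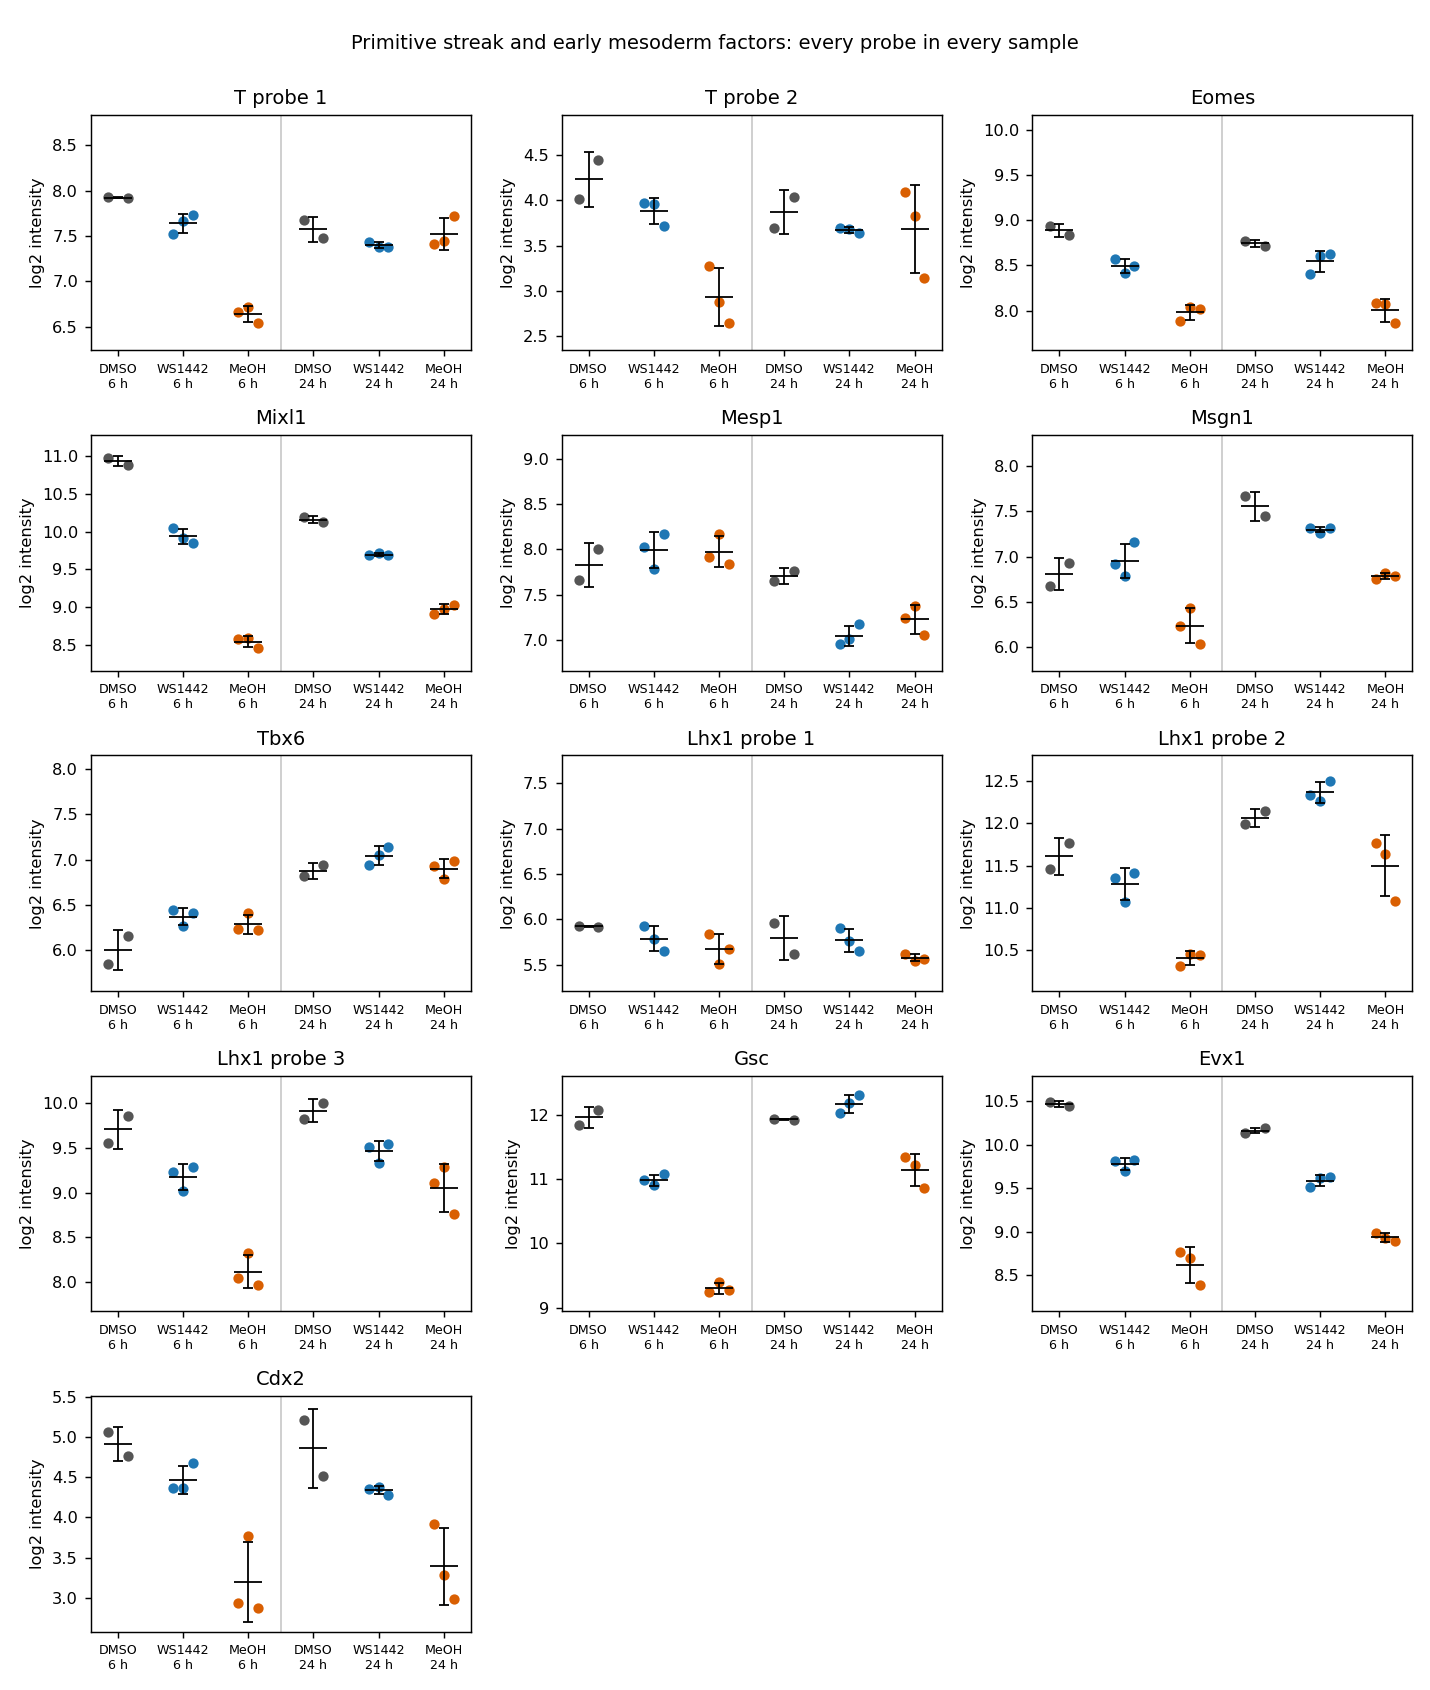
Log2 intensity (y axis, a separate range in each panel) of the 13 probes in every sample, grouped by treatment and time (x axis). Coloured points are single samples and black bars are the group mean with its SD. Gsc and Mixl1 step down from DMSO to WS1442 to MeOH eluate at 6 h, Mesp1 is level at 6 h and lower in both treated groups at 24 h, and Lhx1 probe 1 stays between 5.51 and 5.96 throughout.

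Evx1 and Cdx2 are homeobox factors of the posterior streak, Cdx2 also of the tail bud and the trophoblast. Evx1 (chr6:52313498-52318389) was at 10.49 and 10.44 in DMSO at 6 h, 9.81, 9.70 and 9.82 with WS1442, and 8.77, 8.70 and 8.39 with MeOH eluate. At 24 h Evx1 was at 10.14 and 10.19 in DMSO, 9.52, 9.62 and 9.63 with WS1442, and 8.99, 8.93 and 8.89 with MeOH eluate. The groups were ordered as for Mixl1 and did not overlap at either time.

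Evx1 fell by 1.61-fold with WS1442 (log2 difference -0.69 ± 0.09, adjusted p = 0.00111) and by 3.58-fold with MeOH eluate (-1.84 ± 0.09, adjusted p = 1.49e-08) at 6 h, and by 1.49-fold (-0.58 ± 0.09, adjusted p = 0.000452) and 2.34-fold (-1.22 ± 0.09, adjusted p = 5.16e-07) at 24 h. Its effect differed between times with MeOH eluate, by 0.62 ± 0.13 (adjusted p = 0.00812). With WS1442 the difference between times was 0.11, with a 95% interval from -0.16 to 0.38 (adjusted p = 0.63).

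Cdx2 (chr5:147300900-147307249) was dim, well above background on 11 of the 16 arrays. Its log2 intensity at 6 h was 5.07 and 4.77 in DMSO, 4.37, 4.37 and 4.67 with WS1442, and 2.94, 3.77 and 2.88 with MeOH eluate, where 1 of 3 arrays measured it above background. At 24 h it was 5.21 and 4.51 in DMSO, 4.36, 4.39 and 4.28 with WS1442, and 3.92, 3.28 and 2.98 with MeOH eluate, where no array did. MeOH eluate samples were the lowest at both times, and WS1442 samples lay under DMSO by less than the test could call.

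The fall of Cdx2 with MeOH eluate at 6 h was -1.73 ± 0.32 (adjusted p = 0.00246), and with the normexp background correction it was -0.38 (adjusted p = 0.00327), so the size of this fall depends on the background correction. At 24 h Cdx2 was at least 2.58-fold lower than DMSO in the deposited values. This bound was set against the dimmest probes above background on each array. With the normexp background correction, 2 genes in place of 3 were called and over 2-fold in this comparison. The difference of Cdx2 in the deposited values was -1.47 ± 0.32 (adjusted p = 0.00525). That call was lost without DMSO 24 h replicate 1 (adjusted p = 0.0923). The differences with WS1442 were -0.45 at 6 h, with a 95% interval from -1.14 to 0.25, and -0.52 at 24 h, with an interval from -1.21 to 0.17.

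T, the T-box factor Brachyury, is the general marker of the streak and lies at chr17:8434423-8442496. Its 2 probes lie in different sequences. Probe 1 carries the accession of the RefSeq mRNA. Probe 2 is named after a predicted transcript, and its 56 bases were found at chr17:8434265-8434320 of GRCm38.p6, on the plus strand from 158 to 103 bases before the RefSeq start of T. The first 30 bases of both are given, followed by the 250 bases before the start (RefSeq, GRCm38.p6, chr17:8434173-8434422, plus strand), in which the only match to the motifs searched is in capitals.
T probe 1: tggaaatatgtgaacggggagtgggtacct
T probe 2: ttttctcttccccagagacttactcttgtc
T promoter: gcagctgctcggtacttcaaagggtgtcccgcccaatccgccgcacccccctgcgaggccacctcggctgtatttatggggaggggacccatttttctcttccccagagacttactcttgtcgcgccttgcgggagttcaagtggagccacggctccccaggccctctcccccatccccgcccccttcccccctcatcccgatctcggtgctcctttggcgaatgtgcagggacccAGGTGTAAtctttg

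At probe 1, T was at 7.93 and 7.92 in DMSO at 6 h, 7.52, 7.67 and 7.73 with WS1442, and 6.66, 6.72 and 6.54 with MeOH eluate. At 24 h it was at 7.67 and 7.47 in DMSO, 7.44, 7.38 and 7.38 with WS1442, and 7.41, 7.44 and 7.72 with MeOH eluate. MeOH eluate samples lay below all others at 6 h and overlapped DMSO at 24 h.

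With MeOH eluate T fell by 2.43-fold at 6 h (log2 difference -1.28 ± 0.11, adjusted p = 2.04e-06), and at 24 h the difference was -0.05, with a 95% interval from -0.27 to 0.18 (adjusted p = 0.835). The 2 effects differed by 1.23 ± 0.15 (adjusted p = 0.000129). With WS1442 the differences were -0.28 ± 0.11 at 6 h (adjusted p = 0.152) and -0.17 ± 0.11 at 24 h (adjusted p = 0.262). Probe 2 was above background on 7 arrays and on none of those with MeOH eluate at 6 h, where it was at least 2.11-fold lower than DMSO (adjusted p = 0.00977, and 0.0988 without DMSO 6 h replicate 2).

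Eomes, the T-box factor of mesendoderm (chr9:118478186-118486132), was at 8.94 and 8.84 in DMSO at 6 h, 8.57, 8.42 and 8.49 with WS1442, and 7.89, 8.04 and 8.02 with MeOH eluate. At 24 h Eomes was at 8.77 and 8.72 in DMSO, 8.41, 8.60 and 8.62 with WS1442, and 8.09, 8.07 and 7.86 with MeOH eluate. The order of the groups was that of Mixl1, with smaller steps. MeOH eluate lowered Eomes by 1.87-fold at 6 h (log2 difference -0.91 ± 0.09, adjusted p = 1.12e-05) and by 1.67-fold at 24 h (-0.74 ± 0.09, adjusted p = 4.45e-05).

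The change of the MeOH eluate effect on Eomes between times was 0.17, with a 95% interval from -0.11 to 0.44 (adjusted p = 0.504). WS1442 lowered Eomes by 1.31-fold at 6 h (-0.39 ± 0.09, adjusted p = 0.0236), a call that was lost without DMSO 6 h replicate 1 (adjusted p = 0.274), DMSO 6 h replicate 2 (0.0546), WS1442 6 h replicate 2 (0.0651) or WS1442 6 h replicate 3 (0.0694). At 24 h the difference with WS1442 was -0.20 ± 0.09 (adjusted p = 0.121).

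Msgn1 and Tbx6, both of the presomitic mesoderm, differed from each other. Msgn1, a bHLH factor (chr12:11208382-11208948), was at 6.68 and 6.93 in DMSO at 6 h, 6.92, 6.79 and 7.16 with WS1442, and 6.24, 6.43 and 6.04 with MeOH eluate. At 24 h Msgn1 was at 7.67 and 7.45 in DMSO, 7.32, 7.27 and 7.31 with WS1442, and 6.75, 6.82 and 6.79 with MeOH eluate. The WS1442 samples overlapped DMSO at 6 h, and the MeOH eluate samples were the lowest at both times.

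MeOH eluate lowered Msgn1 by 1.49-fold at 6 h (log2 difference -0.57 ± 0.13, adjusted p = 0.00844), a call that was lost without DMSO 6 h replicate 2 (adjusted p = 0.102), and by 1.71-fold at 24 h (-0.77 ± 0.13, adjusted p = 0.000731). With the normexp background correction the 6 h difference was -0.35 (adjusted p = 0.0112). With WS1442 the differences of Msgn1 were 0.15 ± 0.13 at 6 h (adjusted p = 0.612) and -0.26 ± 0.13 at 24 h (adjusted p = 0.173).

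Tbx6, a T-box factor that lies at chr7:126781483-126785548, was at 5.85 and 6.16 in DMSO at 6 h, 6.44, 6.26 and 6.41 with WS1442, and 6.23, 6.41 and 6.22 with MeOH eluate. At 24 h Tbx6 was at 6.82 and 6.94 in DMSO, 6.94, 7.05 and 7.14 with WS1442, and 6.93, 6.79 and 6.98 with MeOH eluate. The treated samples lay above both DMSO samples at 6 h and close to them at 24 h. No treatment comparison called Tbx6, with differences of 0.37 ± 0.12 for WS1442 (adjusted p = 0.0902) and 0.28 ± 0.12 for MeOH eluate (adjusted p = 0.12) at 6 h, and of 0.17 and 0.02 at 24 h. The interval for MeOH eluate at 24 h ran from -0.23 to 0.27, so a fall as large as that of Msgn1 lay outside it.

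Mesp1, a bHLH factor of nascent cardiac mesoderm (chr7:79792241-79793590), was level at 6 h and lower in both treated groups at 24 h. At 6 h its log2 intensity was 7.66 and 8.00 in DMSO, 8.03, 7.78 and 8.17 with WS1442, and 7.92, 8.17 and 7.84 with MeOH eluate, and the groups overlapped. At 24 h it was 7.65 and 7.77 in DMSO, 6.96, 7.01 and 7.17 with WS1442, and 7.24, 7.38 and 7.06 with MeOH eluate, and all 6 treated samples lay below both DMSO samples.

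WS1442 lowered Mesp1 by 1.58-fold at 24 h (log2 difference -0.66 ± 0.14, adjusted p = 0.00381), against 0.17 ± 0.14 at 6 h (adjusted p = 0.602), and the 2 effects differed by -0.82 ± 0.20 (adjusted p = 0.0173, and 0.103 without DMSO 6 h replicate 1). Mesp1 was the only gene of the 10 with a called difference in that direction. MeOH eluate lowered it by 1.39-fold at 24 h (-0.48 ± 0.14, adjusted p = 0.0294), and the change of that effect with time was -0.62 ± 0.20 (adjusted p = 0.0772, and 0.047 without DMSO 6 h replicate 2). The MeOH eluate call was lost without DMSO 24 h replicate 1 (adjusted p = 0.0812), DMSO 24 h replicate 2 (0.138), MeOH 24 h replicate 1 (0.0619) or MeOH 24 h replicate 3 (0.113).

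The 250 bases before the RefSeq start were available for 9 of the 10 genes and were searched on both strands for 4 motifs of factors and signals that act in the streak. These were ATCAAAG for TCF/LEF, AGGTGTNA for T-box factors, AATNCACA for FOXH1 and the palindrome GTCTAGAC for SMAD, where N stands for any base, and no motif overlapped another. ATCAAAG was found in 2 of 9 promoters, of Mesp1 and Msgn1, beside 3.21% of all 32851 promoters of this length. AGGTGTNA was found in 1, of T, from 14 to 7 bases before the start, beside 2.68% of all. AATNCACA (3.18% of all) and GTCTAGAC (0.167% of all) were found in none. The promoters of Mesp1 (chr7:79793591-79793840, minus strand) and Msgn1 (chr12:11208949-11209198, minus strand) are shown with their matches in capitals, from 31 to 25 and from 203 to 197 bases before the start, beside that of Gsc (chr12:104473237-104473486, minus strand), the gene with the deepest fall, which held no match.
Mesp1 promoter: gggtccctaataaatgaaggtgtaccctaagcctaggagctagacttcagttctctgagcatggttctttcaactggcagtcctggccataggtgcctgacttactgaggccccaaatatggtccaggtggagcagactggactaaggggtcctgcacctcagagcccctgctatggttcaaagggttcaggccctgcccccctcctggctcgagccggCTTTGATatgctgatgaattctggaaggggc
Msgn1 promoter: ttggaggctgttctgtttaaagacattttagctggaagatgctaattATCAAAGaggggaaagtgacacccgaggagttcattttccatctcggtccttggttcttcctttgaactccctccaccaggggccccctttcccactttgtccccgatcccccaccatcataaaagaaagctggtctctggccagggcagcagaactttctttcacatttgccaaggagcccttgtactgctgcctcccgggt
Gsc promoter: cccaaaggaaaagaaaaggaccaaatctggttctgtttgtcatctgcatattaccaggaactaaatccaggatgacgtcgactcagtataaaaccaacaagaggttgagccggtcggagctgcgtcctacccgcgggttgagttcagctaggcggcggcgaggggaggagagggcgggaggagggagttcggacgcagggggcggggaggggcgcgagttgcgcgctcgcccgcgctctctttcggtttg

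The change of each effect with time was tested for all 10 genes. With MeOH eluate, 4 of the 10 genes (T, Mixl1, Gsc and Evx1) had a weaker fall at 24 h than at 6 h, beside 3.67% of all features called in that direction. With WS1442, 3 of the 10 differed between times, beside 11.4% of all features called in either direction, 2 of them (Mixl1 and Gsc) with a positive difference, beside 4.76% of all features, and 1 (Mesp1) with a negative one, beside 6.68%. For Eomes, Msgn1, Tbx6 and Cdx2 neither test passed, and the intervals of Cdx2 were the widest, from -1.05 to 0.91 with WS1442. Lhx1 at probe 2 stood at 0.63 (adjusted p = 0.0886) with WS1442 and 0.64 (adjusted p = 0.118) with MeOH eluate, and both passed without MeOH 24 h replicate 3 (adjusted p = 0.0237 and 0.00917).

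**Figure D3:**
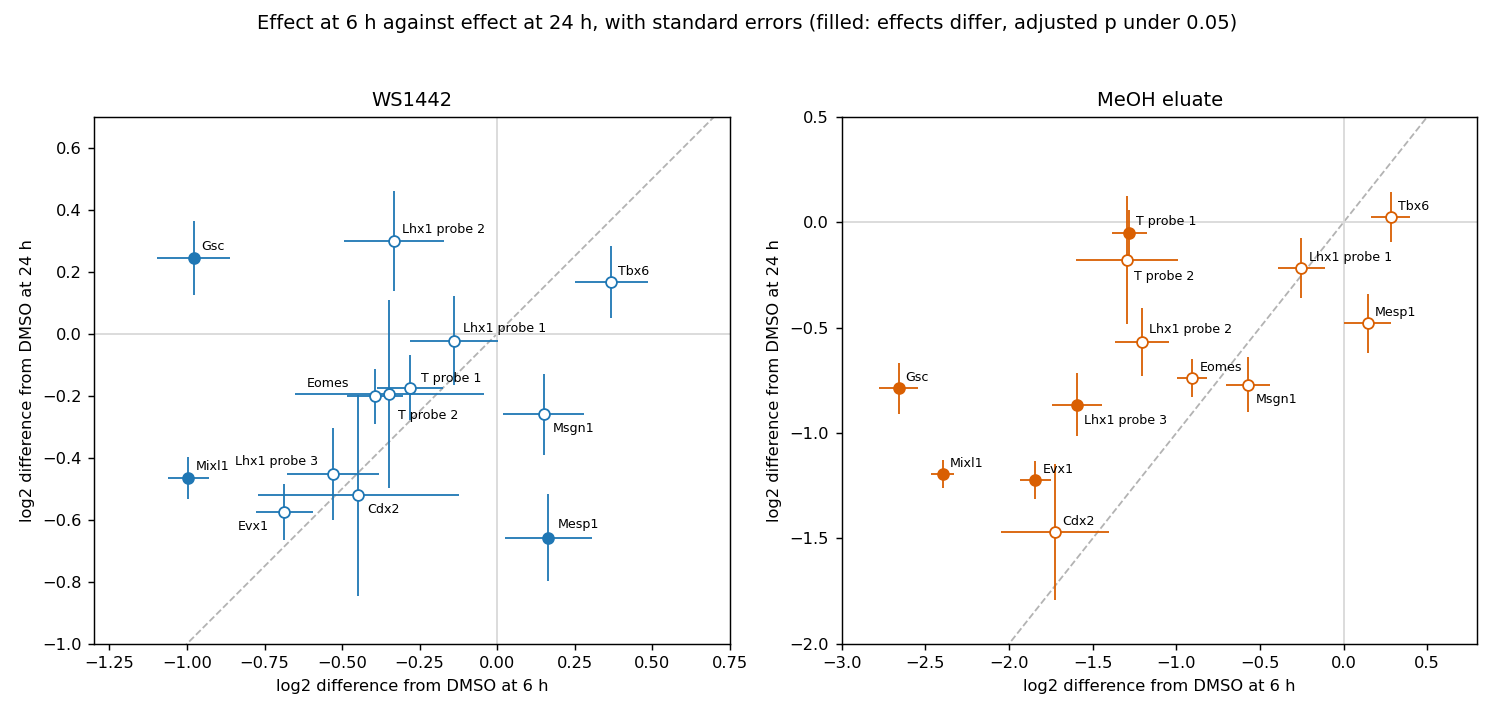
Log2 difference from DMSO at 6 h (x axis) and at 24 h (y axis) for the 13 probes, with WS1442 on the left and MeOH eluate on the right, each panel with its own range. Bars are standard errors, the dashed line marks equal effects, and filled points are those whose 2 effects differ at an adjusted p under 0.05. With MeOH eluate T probe 1 lies at -1.28 and -0.05 and Gsc at -2.66 and -0.79, while Mesp1 lies below the line in both panels.

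In the direct comparison of the preparations, whose doses differed (0.1 and 0.25 mg/mL), 8 of the 10 genes were lower with MeOH eluate than with WS1442 at 6 h, beside 7.43% of all features called lower. The exceptions were Mesp1 (log2 difference -0.02, 95% interval from -0.29 to 0.25) and Tbx6 (-0.09, from -0.31 to 0.14). Among the 8 lower genes were Gsc (-1.68 ± 0.11, adjusted p = 7.13e-07), Mixl1 (-1.40 ± 0.06, adjusted p = 1.03e-08) and Evx1 (-1.16 ± 0.08, adjusted p = 2.3e-06). The difference of Cdx2, above background on 1 of 3 MeOH eluate arrays, was -1.28 ± 0.29 (adjusted p = 0.0137) and -0.25 (adjusted p = 0.0312) with the normexp background correction, so its size depends on how the background is treated. The call of Cdx2 was lost without WS1442 6 h replicate 3 (adjusted p = 0.0616), MeOH 6 h replicate 1 (0.0583) or MeOH 6 h replicate 3 (0.0596).

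At 24 h, 7 of the 10 genes were lower with MeOH eluate than with WS1442, beside 6.06% of all features called lower. They were Gsc (-1.03 ± 0.11, adjusted p = 7.43e-05), Lhx1 at probe 2 (-0.87 ± 0.14, adjusted p = 0.00149), Mixl1 (-0.73), Evx1 (-0.65), Eomes (-0.54), Msgn1 (-0.51) and Cdx2. Cdx2 was at least 1.80-fold lower (adjusted p = 0.0426), a call that was lost without any 1 of the 3 WS1442 24 h samples, MeOH 24 h replicate 2 or MeOH 24 h replicate 3 (adjusted p of 0.0866 to 0.176), and without DMSO 6 h replicate 1, DMSO 6 h replicate 2 or WS1442 6 h replicate 2, which enter only through the shared spread (0.0531 to 0.0548). T (0.12, from -0.08 to 0.33), Mesp1 (0.18, from -0.09 to 0.45) and Tbx6 (-0.14, from -0.37 to 0.08) were uncalled. Lhx1 was also uncalled at probe 3 (-0.41 ± 0.13, adjusted p = 0.0525) and at probe 1 (-0.19 ± 0.13, adjusted p = 0.366).

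In the DMSO cultures, 5 of the 10 genes differed between 24 h and 6 h, or 3 without DMSO 6 h replicate 1 or DMSO 24 h replicate 2, beside 41.3% of all features called in either direction. Of these 2 were higher, beside 20.6% of all features, and 3 lower, beside 20.7%. Each time point was on a slide of its own, so slide and time cannot be told apart in these levels. The presomitic genes Tbx6 (0.88 ± 0.13, adjusted p = 9.87e-05) and Msgn1 (0.75 ± 0.14, adjusted p = 0.000771) were higher at 24 h, and Mixl1 was lower (-0.77 ± 0.07, adjusted p = 2.58e-06). For these 3 genes the 6 h and 24 h samples did not overlap, as was the case for 71.5% of all features with 2 samples on each side.

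T (-0.35 ± 0.12, adjusted p = 0.0255) and Evx1 (-0.30 ± 0.10, adjusted p = 0.0244) were lower at 24 h by less. The difference of Evx1 was -0.09 (adjusted p = 0.505) when each array was scaled to its 75th percentile, and that call was also lost without any 1 of the 4 DMSO samples. The call of T was lost without DMSO 6 h replicate 1 (adjusted p = 0.103), DMSO 6 h replicate 2 (0.0821) or DMSO 24 h replicate 2 (0.181). Gsc (-0.03, 95% interval from -0.31 to 0.24), Eomes (-0.14), Mesp1 (-0.12) and Cdx2 (-0.06) were uncalled, and Lhx1 stood at 0.46 ± 0.18 (adjusted p = 0.0518) at probe 2 and at 0.71 (adjusted p = 0.00656) under the scaling to the 75th percentile. At probe 2 the call was also gained without DMSO 6 h replicate 2 (adjusted p = 0.0412), WS1442 6 h replicate 2 (0.0443), MeOH 24 h replicate 1 (0.0362) or MeOH 24 h replicate 3 (0.00957). Probes 3 and 1 of Lhx1 were uncalled in DMSO over time, at 0.21 ± 0.16 (adjusted p = 0.326) and -0.13 ± 0.16 (adjusted p = 0.526). With the normexp background correction the differences of Tbx6 and Msgn1 were 0.54 and 0.48.

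**Figure D4:**
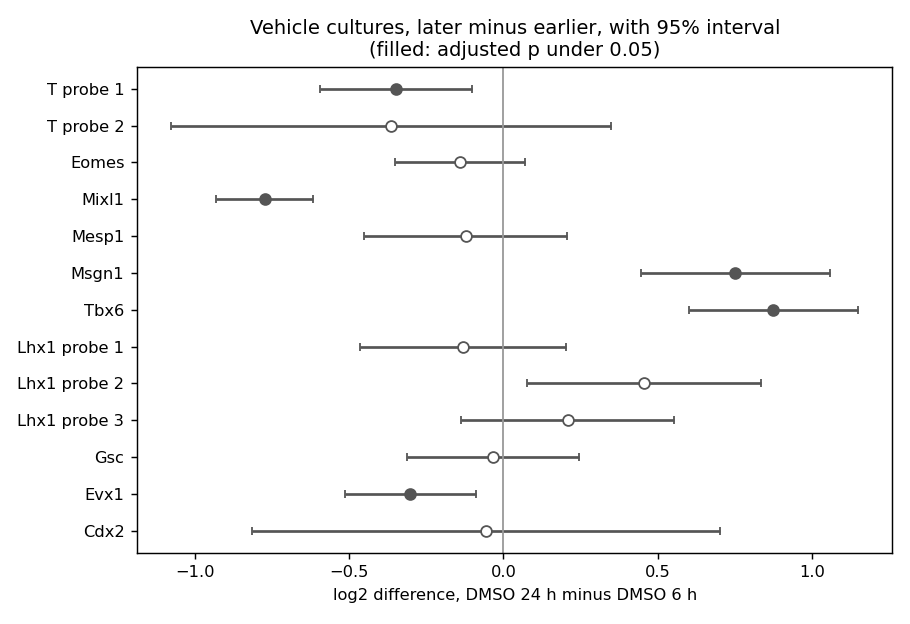
Log2 difference between DMSO samples at 24 h and at 6 h (x axis) for the 13 probes (y axis), as limma estimates with 95% intervals, filled where the adjusted p is under 0.05. Tbx6 and Msgn1 lie to the right at 0.88 and 0.75 and Mixl1 to the left at -0.77. Slide and time cannot be told apart here.

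Across the 16 samples, after the mean of each time point was subtracted, Mixl1 and Evx1 followed each other most closely (Pearson's r = 0.984), followed by Eomes with Evx1 (0.952) and Mixl1 with Gsc (0.950). Tbx6 had r between -0.341 and 0.140 with the other 9 genes, and Mesp1 had r between -0.073 and 0.356. All points share the arrays and the 4 DMSO samples, so these values describe the samples and carry no test. Outside the group, the genes with the highest r were Tdgf1 for Evx1 (0.989), the Nodal co-receptor Cripto, and Dusp6 for Mixl1 (0.986), a phosphatase induced by Fgf signalling. Lzts1 (0.982) and the Fgf-responsive factor Etv5 (0.971) were nearest to Gsc, and Gata6 (0.982) and Msx1 (0.972) to Eomes. For T the homeobox gene Nkx1-1 (0.960) was second to Tmem185a (0.977). Next came Tdgf1 and Ccnd1 (both 0.985) for Mixl1, Ccnd1 (0.968) for Gsc and Chac1 (0.964) for Eomes. The nearest genes of the others were Ext1 for Lhx1 (0.955), Haus5 for Msgn1 (0.950), Shroom1 for Cdx2 (0.950) and Egfl7 for Mesp1 (0.904).

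Of 14 genes for the ligands that induce the streak and their co-factors, 8 fell and 1 rose after 6 h of MeOH eluate, with a median log2 difference of -0.53 beside -0.003 over 31084 genes. Those with the largest falls were Tdgf1 (-1.17, adjusted p = 6.34e-08), Wnt5a (-0.94, adjusted p = 1.27e-05) and Wnt3 (-0.88, adjusted p = 5.84e-09), the Wnt ligand that starts the streak in the embryo. With WS1442 at 6 h, 4 fell and 1 rose, the latter being Bmp7 (0.64, adjusted p = 0.00393). At 24 h, 4 fell and 1 rose with WS1442, and 5 fell and 3 rose with MeOH eluate. With MeOH eluate at 24 h the Nodal co-receptor Cfc1 fell (-1.24, adjusted p = 7e-05) and the ligand Nodal rose (0.84, adjusted p = 0.000419). Beside these counts, 8.28% of all features were called lower and 7.86% higher with MeOH eluate at 6 h. With WS1442 at 6 h the shares were 1.19% and 3.6%. At 24 h they were 8.13% and 8.87% with MeOH eluate, and 12.2% and 11.2% with WS1442.

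Of 12 inhibitors and feedback targets of the same pathways, 7 fell with MeOH eluate and 4 with WS1442 at 6 h. None was called higher, beside 7.86% and 3.6% of all features, while 8.28% and 1.19% of all features were called lower. With MeOH eluate the log2 difference of the Nodal inhibitor Lefty1 was -1.84 (adjusted p = 6.98e-09) and that of Lefty2 was -1.71 (adjusted p = 1.17e-06), and with WS1442 they were -1.05 (adjusted p = 2.04e-05) and -0.69 (adjusted p = 0.00994). At 24 h with MeOH eluate 4 fell and 2 rose, among them Sfrp5 (-1.63, adjusted p = 0.000423) and the Wnt inhibitor Dkk1 (0.89, adjusted p = 0.000479). WS1442 at 24 h lowered 3, Cer1 (-1.10, adjusted p = 0.00746), Lefty2 (-0.67) and Dusp6 (-0.23), and raised none. At 24 h 8.13% of all features were called lower and 8.87% higher with MeOH eluate, and 12.2% and 11.2% with WS1442.

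Of 14 genes tested that act beside or after Tbx6 and Msgn1 in the presomitic mesoderm, 6 rose with MeOH eluate and 4 with WS1442 at 6 h, beside 7.86% and 3.6% of all features called higher, and none was called lower. At 24 h 2 rose with MeOH eluate and 3 with WS1442, beside 8.87% and 11.2% of all features called higher. Foxc2 and Foxc1, forkhead factors of paraxial mesoderm and vessels, were called higher in all 4 comparisons. Foxc2 rose by 3.24 (adjusted p = 3.18e-10) with MeOH eluate and 1.86 (adjusted p = 1.04e-06) with WS1442 at 6 h, and Foxc1 by 1.58 (adjusted p = 1.25e-05) and 1.01 (adjusted p = 0.00323). The Notch modifier Lfng rose by 0.97 (adjusted p = 0.00273) and 0.74 (adjusted p = 0.0358) at 6 h and stood at -0.16 (adjusted p = 0.651) and -0.09 (adjusted p = 0.775) at 24 h.

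Of 13 streak and node partners, 4 fell and 1 rose with MeOH eluate at 6 h, with the largest falls in Otx2 (-1.27, adjusted p = 2.25e-05), an anterior homeobox gene, and the Activin inhibitor Fst (-1.01, adjusted p = 3.36e-07). With WS1442 at 6 h 2 fell and 1 rose. At 24 h 1 fell and 3 rose with WS1442 and 4 fell and 1 rose with MeOH eluate. The shares of all features called lower and higher at 6 h were 8.28% and 7.86% with MeOH eluate, and 1.19% and 3.6% with WS1442. At 24 h these shares were 8.13% and 8.87% with MeOH eluate, and 12.2% and 11.2% with WS1442. Snai1, the repressor that drives the exit of cells from the epithelium, fell at 24 h with WS1442 (-0.66, adjusted p = 0.000585) and with MeOH eluate (-0.76, adjusted p = 0.000176).

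Of 10 posterior genes, 3 fell with MeOH eluate at 6 h and 1 at 24 h, beside 8.28% and 8.13% of all features called lower. The MeOH eluate count at 24 h was thus near the share of all features. With WS1442 at 6 h 1 fell and 1 rose, beside 1.19% called lower and 3.6% called higher. None was called with WS1442 at 24 h by limma, where 1 had an unadjusted p under 0.05. Cyp26a1, the enzyme that removes retinoic acid in the streak, fell with MeOH eluate at 6 h (-1.27, adjusted p = 3.18e-06) and at 24 h (-1.08, adjusted p = 9.2e-06).

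Of 20 genes of later mesoderm tested, 8 fell and none rose with MeOH eluate and 6 fell and 1 rose with WS1442 at 24 h. At 6 h 2 fell and 5 rose with MeOH eluate, and 1 fell and 3 rose with WS1442. Among all features at 24 h, 8.13% were called lower and 8.87% higher with MeOH eluate, and 12.2% and 11.2% with WS1442. At 6 h these shares were 8.28% and 7.86% with MeOH eluate, and 1.19% and 3.6% with WS1442. Etv2, the factor that starts the blood and vessel lineage, fell at 24 h with MeOH eluate (-2.52, adjusted p = 4.92e-09) and with WS1442 (-1.04, adjusted p = 1.37e-05). Tal1, of the same lineage, fell likewise (-1.88, adjusted p = 2.03e-06, and -1.19, adjusted p = 0.000162). So did Tbx3, a T-box gene active in the heart (-1.64, adjusted p = 5.05e-08, and -1.03, adjusted p = 1.05e-05). Foxf1 rose at 6 h with MeOH eluate (1.29, adjusted p = 8.23e-06) and with WS1442 (1.20, adjusted p = 0.000131). At 24 h Foxf1 fell with both (-0.405, adjusted p = 0.0354, and -0.769, adjusted p = 0.000523). The gene that rose with WS1442 at 24 h was Mef2c (0.481, adjusted p = 0.0154).

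**Figure D5:**
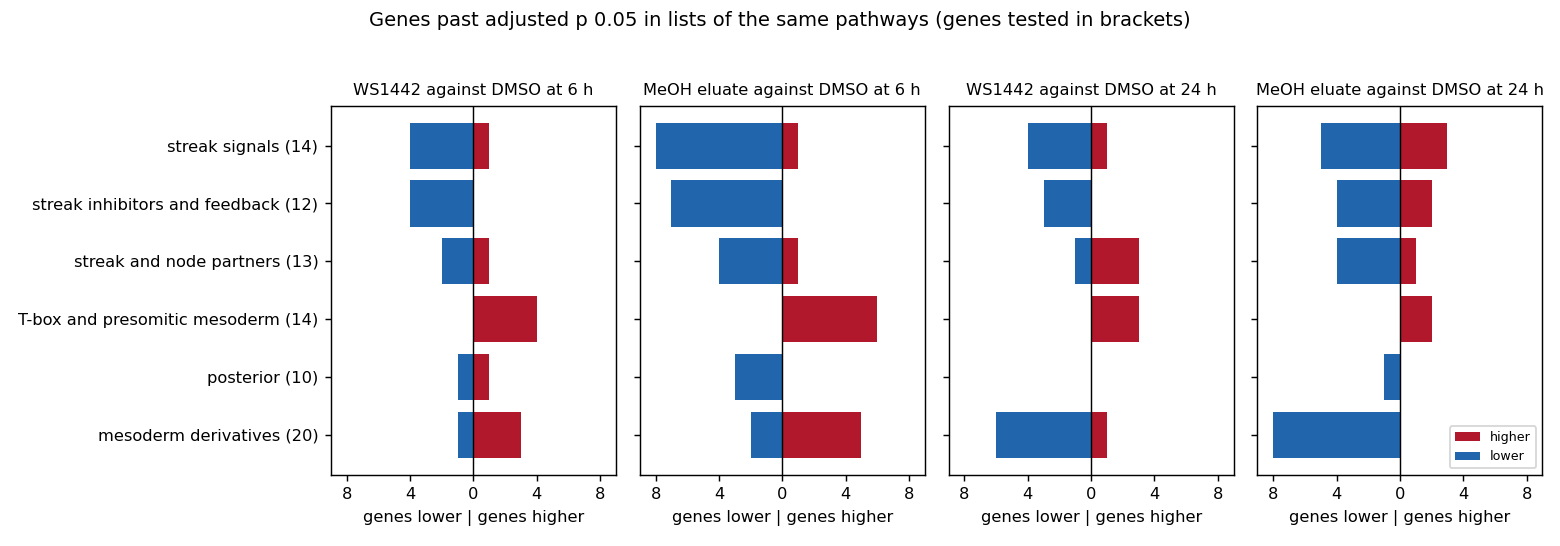
Number of genes past an adjusted p of 0.05 in each of 6 gene lists (y axis, genes tested in brackets), counted to the left where lower and to the right where higher than DMSO (x axis), in 4 panels by treatment and time. With MeOH eluate at 6 h, 8 of 14 streak signals and 7 of 12 inhibitors are lower and 6 of 14 presomitic genes higher. With MeOH eluate at 24 h, 8 of 20 mesoderm derivatives are lower. Rspo3 is counted both in the presomitic list and in the mesoderm derivatives. Among all features, 8.28% are lower and 7.86% higher with MeOH eluate at 6 h, and 8.13% are lower with it at 24 h.

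RNA of pluripotency factors was still measured in these bulk samples. In DMSO the mean log2 intensity at 6 h and 24 h was 13.73 and 12.86 for Pou5f1, and 6.29 and 5.37 for Nanog. These 2 of 7 markers were called lower at 24 h by limma (adjusted p = 6.87e-07 and 0.00102) and none higher. Of all features 20.7% were called lower there, and slide and time cannot be told apart. Of 7 markers, 2 fell with MeOH eluate at 6 h (Nanog, -0.94, adjusted p = 0.00166, and Dppa3, -0.58, adjusted p = 0.0346). With WS1442 at 24 h 1 fell (Sox2, -0.58, adjusted p = 0.0135). Of all features 8.28% and 12.2% were called lower in these comparisons, so 1 of 7 at 24 h was near the share. None of the 7 was called by limma with WS1442 at 6 h, where 0 had an unadjusted p under 0.05, or with MeOH eluate at 24 h, where 1 had. Pou5f1, the defining factor, differed by -0.01 with either treatment at 6 h (adjusted p = 0.965 and 0.944), and by 0.05 and 0.09 at 24 h (0.658 and 0.428).

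Markers of other cell types moved beside the members. Some are also in the lists above, so the counts are not separate. The cardiac progenitor markers, Kdr and Tal1 are also among the later mesoderm genes, and Foxa2 and Otx2 among the streak and node partners. Besides Gsc, itself a member, the definitive endoderm list held Sox17, Foxa2 and Cxcr4, of which Sox17 (-0.65, adjusted p = 0.00634) and Foxa2 (-0.71, adjusted p = 0.0051) fell with MeOH eluate at 6 h, and Sox17 and Cxcr4 fell with both treatments at 24 h. Without Gsc the summed intensity of that list at 6 h was 407 to 466 in DMSO, 336 to 393 with WS1442 and 294 to 300 with MeOH eluate, and at 24 h it was 712 to 794, 515 to 530 and 433 to 578. Of 4 neuroectoderm markers tested, 1 rose with MeOH eluate at 6 h, and 3 rose with WS1442 and 2 with MeOH eluate at 24 h. Among all features, 7.86% were called higher with MeOH eluate at 6 h, and 11.2% with WS1442 and 8.87% with MeOH eluate at 24 h. The shares called lower in these comparisons were 8.28%, 12.2% and 8.13%. The summed intensity of the neuroectoderm markers was 4612 to 4662, 4491 to 4821 and 5433 to 6229 in DMSO, WS1442 and MeOH eluate at 6 h. At 24 h it was 3099 to 3105, 4705 to 5340 and 3937 to 4699. This sum is mostly that of 1 gene, Nes. At 24 h its mean log2 intensity was 11.29, 12.08 and 11.87, against at most 9.19 for the other markers tested.

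Of 4 trophoblast markers tested, which did not include Cdx2 or Eomes, 1 fell with each treatment at 6 h, and 2 fell with WS1442 and 3 with MeOH eluate at 24 h. Their summed intensity was 2565 to 2588, 2075 to 2353 and 1809 to 1972 in DMSO, WS1442 and MeOH eluate at 6 h, and 3117 to 3122, 2194 to 2435 and 1817 to 1923 at 24 h. Of 6 endothelial and blood markers, 1 fell with WS1442, and 2 fell and 1 rose with MeOH eluate at 24 h. Of 4 epiblast markers, 1 fell with WS1442 and 1 fell and 1 rose with MeOH eluate at 6 h. At 24 h 2 rose with WS1442 and 1 fell and 1 rose with MeOH eluate. Of 2 visceral endoderm markers tested, 1 rose with WS1442 at 24 h. Of 5 cardiac progenitor markers, 1 rose with MeOH eluate at 6 h. At 24 h 1 fell and 1 rose with WS1442, and 2 fell with MeOH eluate. These 2 were Hand2 (-0.694, adjusted p = 0.00188) and Isl1 (-0.565, adjusted p = 0.0068). Isl1 was also the marker that rose with MeOH eluate at 6 h (0.552, adjusted p = 0.00984). With WS1442 at 24 h Hand2 fell (-0.488, adjusted p = 0.0156) and Mef2c rose (0.481, adjusted p = 0.0154). Of all features, 1.19% were called lower and 3.6% higher with WS1442 at 6 h, and 8.28% and 7.86% with MeOH eluate. At 24 h these shares were 12.2% and 11.2% with WS1442, and 8.13% and 8.87% with MeOH eluate. The part of these cell types in the results was not tested.

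On the 16 arrays, between 55.1% and 63.0% of the gene spots were well above background, and no member probe was saturated or marked as non-uniform. RNA integrity numbers lay between 8.6 and 10, the lowest in WS1442 24 h replicate 2. The Cy3 incorporation at 24 h was 25.8 to 26.1 pmol/µg in DMSO, 31.8 to 32.8 pmol/µg with WS1442 and 27.1 to 30.3 pmol/µg with MeOH eluate, and its part in the 24 h results was not tested. The number of arrays limits the precision.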

How the data were processed

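RNA of 16 samples was labelled with Cy3 by the authors' service provider and hybridised to 1-colour Agilent arrays of 62912 spots. As deposited, the scanner intensity values are in arbitrary units, background corrected within each array, and a second table holds the authors' linear intensities after quantile normalization over all samples. The flags for spots well above background, saturated or non-uniform are codes set by the scanner's software, as deposited. Each column of the table correlated best with its own array (r of at least 0.998). The values used here are log2 of the intensities deposited by the authors.

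Probes were named through the RefSeq accession, and otherwise by the scanner's gene name. The filter on dim probes asked that all arrays of some group had flagged the spot as well above background. The means of the 6 groups were fitted to all 16 samples with limma 3.58.1 (eBayes with trend) in R 4.3.3, and p-values were adjusted over 36349 features. The treatments were tested against DMSO of the same time and against one another, and their effects between times. A bound on a fold was calculated where no array of a group was above background. The adjusted p beside a bound is that of the difference in the deposited values. Tables and figures were made in Python 3.11.15. The fit was tested on simulated data with 200 changed features. In the comparisons with DMSO it recovered 131 to 140 changes, with 4 to 11 false calls, so it missed part of the true changes.

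The members, gene lists and tests were chosen with earlier results of these data known. All members are named. Of each list and treatment comparison at most the 3 called genes with the largest difference are named, and for each called member the 3 genes of highest correlation may be. Marker genes and uncalled Lfng values were added after their values were seen. Alternatives covered the source of the values, the normalization, background correction, filter, probe, variance prior, samples in the fit, test, array row, replicate block, call rule and each sample left out. The methods' t-test is Student's t-test, which the study's methods name for pairwise comparisons. Promoter sequences are from RefSeq (GRCm38.p6).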

Additional observations from a re-analysis of the deposited data

Results flagged for a closer look

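A total of 8 effects differed between 6 h and 24 h by the test of the difference itself, each as the log2 effect at 24 h minus that at 6 h. With WS1442 these were Mixl1 (0.53, adjusted p = 0.00434), Gsc (1.22, adjusted p = 0.00108) and, in the opposite direction, Mesp1 (-0.82, adjusted p = 0.0173). With MeOH eluate they were T at probe 1 (1.23, adjusted p = 0.000129), Mixl1 (1.20, adjusted p = 3.05e-06), Gsc (1.87, adjusted p = 9.22e-06), Evx1 (0.62, adjusted p = 0.00812) and Lhx1 at probe 3 (0.73, adjusted p = 0.0485). The difference of Lhx1 was lost under several settings, with an adjusted p of 0.112 under scaling to the 75th percentile and of 0.185 without DMSO 6 h replicate 2, and at the brighter probe 2 it was 0.64 (adjusted p = 0.118). Each effect is against DMSO samples on the same slide.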

How the results depend on the processing

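No single-probe difference that was called changed its sign under any setting. Apart from the methods' t-test and the study's limits, 2758 single-probe values under another setting stayed on their side of the threshold, 85 calls were lost and 16 gained. The count of called genes changed by more than 1.5 times as follows. At the study's limits (over 2-fold and unadjusted p under 0.05) it was 0 for WS1442 at 6 h, 0 for WS1442 at 24 h, 3 for MeOH eluate at 24 h, 5 and 1 for MeOH eluate against WS1442 at 6 h and 24 h, 1 for the change of the WS1442 effect and 0 for DMSO over time, where 6, 4, 8, 8, 7, 5 and 6 genes had an unadjusted limma p under 0.05. The methods' t-test at the same limits gave 0, 0, 3, 5, 1 and, for DMSO over time, 0. After adjustment the methods' t-test called 0 genes for WS1442 at 6 h, 0 for MeOH eluate at 6 h, 0 for WS1442 at 24 h, 2 for MeOH eluate at 24 h, 2 and 3 for MeOH eluate against WS1442 and 0 for DMSO over time, with 5, 8, 3, 7, 8, 7 and 4 genes at an unadjusted p under 0.05. With each sample left out in turn, the counts were 3 to 4 (WS1442 at 6 h), 7 to 8 (MeOH eluate at 6 h), 3 (WS1442 at 24 h), 5 to 8 (MeOH eluate at 24 h), 7 to 8 and 6 to 7 (direct comparison at 6 h and 24 h), 2 to 4 and 4 to 5 (changes between times, WS1442 and MeOH eluate) and 3 to 6 (DMSO over time). Without DMSO 24 h replicate 1, 5 genes were called with MeOH eluate at 24 h, and DMSO over time had 3 without DMSO 6 h replicate 1 or DMSO 24 h replicate 2. Deviations of samples with the same replicate number correlated between -0.224 and 0.279. With 2 or 3 samples per group and no other pairs set beside them, these values cannot show whether the numbers paired the samples. With a replicate block the count for DMSO over time was 3, for WS1442 at 6 h 3 and for MeOH eluate at 24 h 6. With Lhx1 at its RefSeq probe, an alternative added after the data were seen, the counts for MeOH eluate were 7 at each time. Scaling to the 75th percentile raised the share of higher calls among all called features of WS1442 at 6 h from 75.1% to 85.0%, and lowered that of WS1442 at 24 h (48.0% before, 36.8% after), that of MeOH eluate at 24 h (52.2% before, 42.7% after), that of MeOH eluate against WS1442 at 6 h (35.9% before, 19.1% after) and that of the change of the WS1442 effect (41.6% before, 25.7% after). Under it 4, 3, 8, 8 and 3 members were called in these comparisons. The causes were not tested. Dim probes (Cdx2 and T probe 2) give only bounds in some groups.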
